A study of Mus musculus with 12 samples.

Results

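The 8 genes described here encode the proteins that build caveolae: Cav1, Cav2, Cavin1, Cavin2, Cavin3, Ehd2, Pacsin2 and Pacsin3. They were taken by gene symbol from 55573 genes, and each symbol matched 1 gene in all 12 libraries. The libraries are polyadenylated RNA from PB3, a mouse breast cancer line that the labels give as lacking the estrogen, progesterone and HER2 receptors. They form 4 groups of 3. Control is PB3-Parental, without drug, and the derivatives are ERI-R, resistant to eribulin (also spelled Erubilin in the labels), PAC-R, resistant to paclitaxel, and VIN-R, resistant to vinorelbine. For each drug the labels list selection at 300, 500 and 800 nM without tying a dose to a library, and they speak of resistant clones without giving how many each derivative holds. All groups share the parental line and the medium, no group went through selection without drug, and cultures behind the replicate numbers are not described. The members were chosen by symbol with measured values in view, namely their CPM in the 4 groups (the expected count of a gene per 1000000 expected counts of the library). Their differences between groups are therefore given as a description, with no p-values, and the calls of the fit over all genes stand beside the share of all genes called.

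Caveolae are flask-shaped pits of the plasma membrane that buffer membrane tension, take part in lipid handling and endocytosis, and hold signalling receptors. Caveolins (Cav1, Cav2) are hairpin membrane proteins that bind cholesterol, and Cav1 is needed to form caveolae outside muscle, while Cav2 joins Cav1 in hetero-oligomers and depends on it to leave the Golgi. Cavins are the coat around the bulb, with Cavin1 needed for its assembly and Cavin2 and Cavin3 as its partners. Ehd2 is an ATPase at the neck that holds caveolae at the surface, and Pacsin2 and Pacsin3 are F-BAR proteins that bend membranes there. Caveolae are abundant in endothelial cells, adipocytes and muscle, and Cav1 is commonly higher in basal or mesenchymal than in luminal breast cells.

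The libraries held 11141028 to 13454395 expected counts, so that 3 counts, taken as the floor, correspond to 0.223 to 0.269 CPM. The libraries of each group differed in leukocyte transcripts: 10 of 10 leukocyte and macrophage markers were found, with a summed level of 527 to 3304 CPM in 8 libraries and 1.41 to 3.37 CPM in VIN-R 3, PAC-R 3, ERI-R 3 and Control 1, where 6 of the 10 had no count at all. Each group thus held 2 libraries with and 1 without them, with summed levels of 1.41 to 1893 CPM in Control, 2.33 to 1174 CPM in ERI-R, 3.37 to 3304 CPM in PAC-R and 2.09 to 3249 CPM in VIN-R. Markers of cell types rich in caveolae were low: 8 endothelial markers summed to at most 20.01 CPM, with 2 at 0 in all libraries, 7 muscle markers to at most 6.64 CPM, and 6 adipocyte markers to at most 32.8 CPM, nearly all of it Fabp4, which macrophages also express, with Adipoq and Plin1 at most at 0.0898 CPM. Fibroblast markers summed to 16.3 to 108 CPM, 1 of 7 of them at 0 throughout, and 8 epithelial markers to 1183 to 5039 CPM, most of it Krt8 and Krt18. The epithelial sum overlapped between groups, at 1393 to 2528 CPM in Control, 1183 to 2679 CPM in ERI-R, 1464 to 5039 CPM in PAC-R and 1272 to 3708 CPM in VIN-R. Of the 8 markers, 5 (Epcam, Cdh1, Krt19, Cldn4 and Cldn7) were higher in every ERI-R library than in any other, with Epcam at 195 to 278 CPM and Cdh1 at 80.5 to 376 CPM there against at most 10.5 and 13.3 CPM elsewhere. Krt18 went the other way against Control, at 145, 213 and 750 CPM in ERI-R and 1159, 826 and 756 CPM in Control. Krt8 overlapped, at 207 to 783 CPM in ERI-R and 535 to 1121 CPM in Control, and so did Krt7. The part of the epithelial markers in the results below was not tested. Transcripts of the receptors that the label gives as absent were counted, with 4.31 to 16.4 CPM of Esr1, at most 10.1 CPM of Pgr and 15.2 to 49.3 CPM of Erbb2.

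The promoters of 4 members are shown because the groups separated these genes in different ways: Cav1 and Cavin2 were low in ERI-R, Cav2, the neighbour of Cav1, was not separated, and Cavin1 was high in PAC-R. Each is the 250 bases before the first RefSeq start listed for the gene (GRCm38.p6), 5′ to 3′, in lower case, with capitals where a searched motif matched on either strand.
Cav1 promoter, chr6:17306085-17306334, + strand: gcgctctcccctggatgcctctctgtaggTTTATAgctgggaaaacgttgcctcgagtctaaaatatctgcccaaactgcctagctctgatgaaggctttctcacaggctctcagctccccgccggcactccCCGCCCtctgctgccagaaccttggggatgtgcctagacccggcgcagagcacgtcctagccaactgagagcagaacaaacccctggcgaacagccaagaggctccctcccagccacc
Cav2 promoter, chr6:17280935-17281184, + strand: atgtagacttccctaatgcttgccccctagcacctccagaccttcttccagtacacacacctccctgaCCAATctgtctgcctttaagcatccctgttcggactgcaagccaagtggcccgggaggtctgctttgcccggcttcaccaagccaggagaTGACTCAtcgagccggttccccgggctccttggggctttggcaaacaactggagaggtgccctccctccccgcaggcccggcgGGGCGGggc
Cavin1 promoter, chr11:100970618-100970867, - strand: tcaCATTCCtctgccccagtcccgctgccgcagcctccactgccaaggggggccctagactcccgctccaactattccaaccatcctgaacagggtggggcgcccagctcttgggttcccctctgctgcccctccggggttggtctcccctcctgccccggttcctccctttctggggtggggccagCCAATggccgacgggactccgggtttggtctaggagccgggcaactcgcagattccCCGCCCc
Cavin2 promoter, chr1:51288876-51289125, + strand: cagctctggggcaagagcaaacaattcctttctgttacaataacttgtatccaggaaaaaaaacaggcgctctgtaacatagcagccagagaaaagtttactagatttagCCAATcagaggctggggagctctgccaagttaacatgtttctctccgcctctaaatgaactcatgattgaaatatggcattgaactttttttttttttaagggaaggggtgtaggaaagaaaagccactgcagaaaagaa
The motifs searched were AP-1 (TGANTCA), TEAD (GGAATG), the E-box of ZEB and SNAI repressors (CACCTG), Sp1 (GGGCGG), the CCAAT box of NF-Y, forkhead (GTAAACA), the TATA sequence TATAAA and the CArG box of serum response factor, none of which contains another. The Cav1 window held an Sp1 match and an inverted TATAAA at bases -221 to -216 from the start. RefSeq gives Cav1 another start, not shown, whose window at chr6:17307390-17307639 held a CACCTG match at bases -158 to -153 on the minus strand and no other. The Cav2 window held matches to AP-1, Sp1 and CCAAT, the Cavin1 window to TEAD, Sp1 and CCAAT, and the Cavin2 window, with a G and C content of 40.4% against a median of 52.4% over all windows, only to CCAAT. The table held windows for 7 of the 8 members, and Cavin3 has no entry. Among 32851 windows of the same length, AP-1 matched in 6.749%, TEAD in 12.64%, CACCTG in 17.22%, Sp1 in 32.74%, CCAAT in 33.85%, forkhead in 3.166%, TATAAA in 12.37% and the CArG box in 1.467%. These matches describe letters, not binding. In GENCODE M21 (GRCm38), Cavin1 lies at 100956733 to 100970887 on the minus strand of chromosome 11, Cavin2 at 51289126 to 51302960 on the plus strand of chromosome 1, and Cavin3 and Ehd2 at 105480083 to 105482300 and 15946958 to 15967567 on the minus strand of chromosome 7. Pacsin2 lies at 83375607 to 83464606 on the minus strand of chromosome 15 and Pacsin3 at 91255954 to 91264679 on the plus strand of chromosome 2. The Cavin1 window shown, placed by its RefSeq start, lies inside the GENCODE bounds of the gene, downstream of the GENCODE start. The other windows shown end at the base before the GENCODE start.

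In eribulin-resistant cells Cav1, Cavin2, Cavin3, Ehd2 and Pacsin2 had a smaller share of the RNA than in parental cells. Cavin1 was scarce in both groups, and Cav2 and Pacsin3 were not called. All 8 members passed the filter on low counts, which Cavin1 and Cavin3 passed only through the other groups, where they were higher. The calls of Cavin1 and Cavin3 in comparisons with ERI-R, and their part in the member counts and medians here and below, therefore support nothing. In ERI-R against Control 5 were called lower and 0 higher, where 9.69% of 14226 genes were called lower and 9.51% higher. ERI-R and Control libraries were apart, with no overlap, for 6 members and for 35% of all genes. The median log2 fold change was -2.00 over the members and -0.00 over all genes. The test was edgeR's quasi-likelihood test with Benjamini-Hochberg adjustment over all genes.

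Among the caveolins, only Cav1 was called. Cav1, the caveolin that forms the pit, lay at 314, 399 and 324 CPM in Control 1 to 3 and at 42.7, 39.2 and 0.987 CPM in ERI-R 1 to 3, the last from 11 counts. Every ERI-R library was below every Control library, and ERI-R 3 was far below ERI-R 1 and ERI-R 2. ERI-R 3 stood apart from them in other genes too, with Capza2, an actin capping protein, at 48.0 CPM against 303 and 307 CPM. Krt19 lay higher there, at 94.2 CPM against 22.5 and 26.9 CPM. Ratios that use ERI-R 3 are thus not particular to the members, and a shift of the whole library was not tested. Control averaged 346 ± 46.5 CPM and ERI-R 27.6 ± 23.1 CPM (SD, n = 3 each). The log2 fold change was -3.84 (SE 0.90), and -3.14 once ERI-R 3 was left out. Between libraries with leukocyte transcripts the CPM ratio of Control to ERI-R was 8.82, and between Control 1 and ERI-R 3, which lack them, it was 318. A fit of these groups alone gave the same value (-3.84) and did not call Cav1.

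Cav2, which needs Cav1 to reach the surface, lay at 113, 194 and 192 CPM in Control and at 154, 197 and 10.9 CPM in ERI-R. ERI-R 1 and ERI-R 2 fell within or above the Control range, and only ERI-R 3 lay below it. The log2 fold change was -0.65 (SE 0.81), and it turned to 0.02 without ERI-R 3. Between Control 1 and ERI-R 3 the ratio was 10.4, against 1.101 between the means of the other libraries of these groups.

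**Figure D1:**
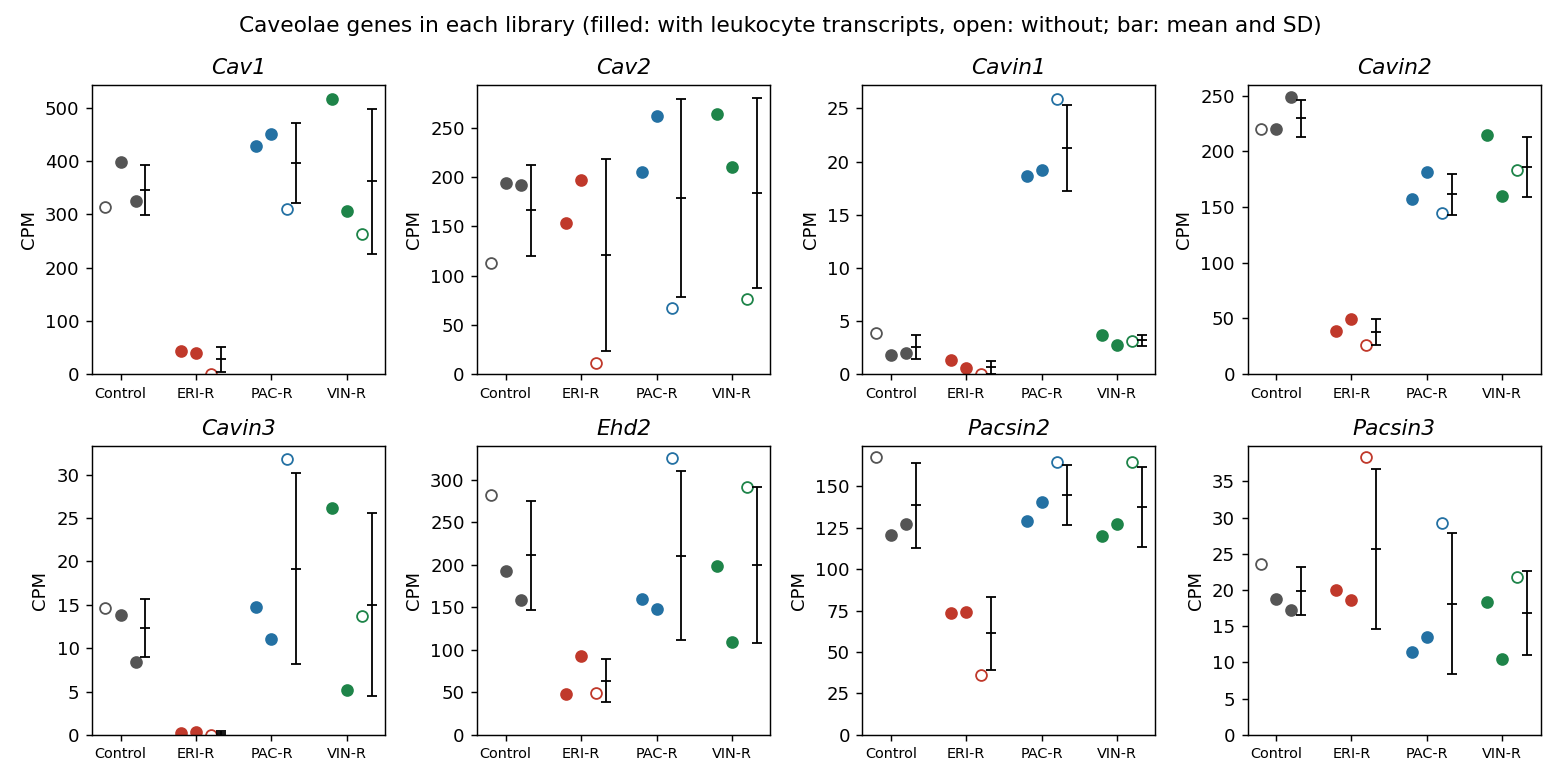
CPM of each caveolae gene (linear axes, 1 panel per gene) in the 3 libraries of each group, in replicate order, with the mean and SD beside them; filled points are libraries with leukocyte transcripts and open points those without. Cav1 reached at most 42.7 CPM in ERI-R against at least 263 CPM in the other 9 libraries, and Cavin1 lay at 18.6 to 25.9 CPM in PAC-R against at most 3.79 CPM elsewhere.

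Of the cavins, Cavin2 and Cavin3 were called lower in ERI-R, from very different levels. Cavin2, a coat partner that promotes membrane curvature, lay at 220.2, 220.1 and 248.5 CPM in Control and at 39.1, 49.2 and 25.9 CPM in ERI-R, with a log2 fold change of -2.68 (SE 0.24). Here the groups were far apart and the spread within each was small, and the change lay between -2.80 and -2.43 when any library was left out. The ratio of Control to ERI-R was 5.30 with and 8.52 without leukocyte transcripts. Cavin3, which binds Cav1 and carries signals from caveolae, lay at 14.6, 13.8 and 8.46 CPM in Control. In ERI-R it had 7 counts in all, at 0.268 and 0.349 CPM in ERI-R 1 and 2 and at 0 in ERI-R 3. Its log2 fold change was -5.94 (SE 0.87), and -5.24 in the 8 libraries with leukocyte transcripts. Against Control 1, ERI-R 3 was at least 54.4-fold lower for Cavin3, taking 3 counts as the floor.

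Cavin1, the cavin on which coat assembly depends, was scarce in Control, at 3.79, 1.73 and 1.96 CPM, and scarcer in ERI-R, at 1.25, 0.523 and 0 CPM (20 counts in all). The groups did not overlap, and the log2 fold change of -2.21 (SE 0.76) was not called. It was called without ERI-R 1 (-3.25), without ERI-R 3 (-1.54), with DESeq2 (-2.15) and in a fit that held a score of leukocyte markers (-2.14). The ratio of Control to ERI-R was 2.08 in libraries with leukocyte transcripts, and ERI-R 3 was at least 14.1-fold lower than Control 1.

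Among the neck proteins, Ehd2 and Pacsin2 were lower and Pacsin3 was not called. Ehd2 lay at 282, 193 and 159 CPM in Control and at 48.4, 93.1 and 49.6 CPM in ERI-R, with a log2 fold change of -1.79 (SE 0.44). ERI-R 2 was the library closest to Control. The ratio of Control to ERI-R was 2.48 with and 5.69 without leukocyte transcripts. The call was lost without Control 1 (-1.46), ERI-R 1 (-1.56) or ERI-R 3 (-1.62). Pacsin2, the widely expressed F-BAR protein of the pair, lay at 168, 120.4 and 127 CPM in Control and at 73.5, 74.1 and 36.0 CPM in ERI-R, a log2 fold change of -1.28 (SE 0.26). Its call was lost without Control 1 (-1.04), and the ratio of Control to ERI-R was 1.68 with and 4.67 without leukocyte transcripts. Pacsin3, the F-BAR protein best known from muscle, lay at 23.6, 18.7 and 17.2 CPM in Control and at 20.02, 18.6 and 38.4 CPM in ERI-R. The groups overlapped, the log2 fold change was 0.41 (SE 0.47), and it was -0.09 without ERI-R 3.

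ERI-R also had lower levels than the other resistant lines. Against PAC-R 6 members were called lower and 0 higher (9.55% and 9.19% of all genes), and against VIN-R likewise 6 and 0 (9.74% and 9.55% of all genes). The called members were Cav1, Cavin1, Cavin2, Cavin3, Ehd2 and Pacsin2 in each. Their libraries did not overlap for 6 members in each, as for 28.2% of all genes against PAC-R and 29.3% against VIN-R. These comparisons share the ERI-R libraries with each other and with the comparison above. Cav1 had a log2 fold change of -4.10 (SE 0.92) against PAC-R and of -3.95 (SE 0.91) against VIN-R. Cav2 had -0.82 (SE 0.81) and -0.85 (SE 0.81), and neither was called. The call of Cavin1 against VIN-R (-2.59, SE 0.77) was lost on leaving out any of 9 libraries, among them VIN-R 1 (-2.50), and that of Ehd2 against VIN-R without ERI-R 1 (-1.53), ERI-R 3 (-1.59) or VIN-R 3 (-1.41), and against PAC-R without ERI-R 1 (-1.63). Fits of only the groups compared called 3 members against PAC-R and 2 against VIN-R.

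**Figure D2:**
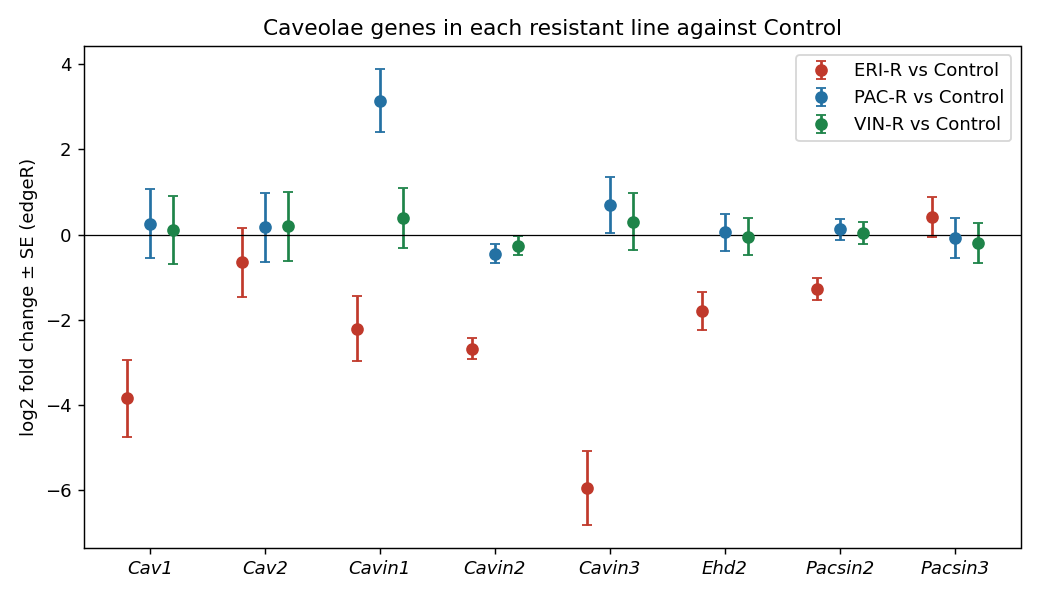
Log2 fold change with its SE (edgeR, all 12 libraries) of the 8 caveolae genes in ERI-R, PAC-R and VIN-R against Control. ERI-R points range from -5.94 for Cavin3 to 0.41 for Pacsin3, while the VIN-R points lie between -0.26 and 0.38, and Cavin1 in PAC-R stands at 3.15.

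In paclitaxel-resistant cells Cavin1 stood apart from the other members. It lay at 18.6, 19.2 and 25.9 CPM in PAC-R 1 to 3, against 3.79, 1.73 and 1.96 CPM in Control and 3.69, 2.67 and 3.07 CPM in VIN-R. All PAC-R libraries were above all other libraries. Its mean was 21.2 ± 4.06 CPM in PAC-R, where Control had 2.49 ± 1.13 CPM (SD, n = 3). The log2 fold change was 3.15 (SE 0.75) against Control and 2.77 (SE 0.73) against VIN-R. The CPM ratio of PAC-R to Control was 10.3 in libraries with leukocyte transcripts and 6.84 between those without. On leaving out any library the change stayed between 2.95 and 3.57. edgeR did not call it, nor any of 14226 genes (percent called 0%), with 245 genes at an unadjusted p under 0.05, whereas DESeq2 called 24 genes, Cavin1 among them. Against VIN-R edgeR again called 0 genes (0%), with 156 at an unadjusted p under 0.05, and DESeq2 called 5, with Cavin1 among them. In that comparison 1 member, Cavin1, and 2.72% of all genes did not overlap. The 245 and 156 genes are each below a share of 0.05 of all genes, the share that no difference at all would give. The 0 calls therefore do not show that the groups are alike.

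None of the other 7 members was called between PAC-R and Control by either tool. Their log2 fold changes lay between -0.45 for Cavin2 and 0.69 for Cavin3. Cavin2 lay at 157, 182 and 145 CPM in PAC-R, below the 3 Control libraries, with an SE of 0.23. Of the 8 members, 2 did not overlap between these groups, Cavin1 and Cavin2, where 7.56% of all genes did not. Cav1 lay at 428, 450 and 309 CPM in PAC-R, which overlaps Control. Cav2 lay at 206, 263 and 67.4 CPM, and Cavin3 at 14.7, 11.1 and 31.8 CPM. For Cav2, PAC-R 3 was the low library, and for Cavin3 the high one.

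In vinorelbine-resistant cells no member was called against Control, and the log2 fold changes lay between -0.26 for Cavin2 and 0.38 for Cavin1. edgeR called 0 of 14226 genes here (0%), with 381 at an unadjusted p under 0.05, and DESeq2 called 36, none of them a member. The 381 genes too are below a share of 0.05 of all genes, so the 0 calls do not show that the groups are alike. Cav1 lay at 517, 307 and 263 CPM in VIN-R, a range that contains all Control libraries. Only Cavin2 did not overlap, at 214, 160.3 and 184 CPM against at least 220.1 CPM in Control, where 8.35% of all genes did not overlap. The SE was 0.81 for Cav1 and for Cav2, so these values do not show that the caveolins are alike in both lines.

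Per length of transcript, in TPM (transcripts per 1000000 transcripts, as the authors computed it), Cav1 led the family in Control at 280 ± 31.9 TPM (SD, n = 3), above every other member in every Control library. Cavin2 (127 ± 10.2 TPM) and Cav2 (108 ± 22.5 TPM) followed and overlapped, as did Cav2 with Pacsin2 (78.6 ± 15.9 TPM) and Pacsin2 with Ehd2 (67.8 ± 21.8 TPM). Pacsin3 (21.3 ± 3.63 TPM) lay above Cavin3 (13.2 ± 3.61 TPM) without overlap. Cavin1 came last, at 1.20 ± 0.576 TPM. PAC-R and VIN-R had the same first 5 genes with Cav2 ahead of Cavin2, and Cavin1 was last there too, with 9.34 ± 0.806 TPM in PAC-R, while VIN-R had 1.38 ± 0.1002 TPM. In ERI-R the order changed: Cav2 was first at 78.6 ± 64.7 TPM, ahead of Pacsin2 (33.1 ± 18.5 TPM), Pacsin3 (21.9 ± 1.27 TPM), Cav1 (21.7 ± 18.8 TPM), Cavin2 (19.1 ± 9.38 TPM) and Ehd2 (18.1 ± 9.70 TPM), all of which overlapped with their neighbours in this order. Cavin1 and Cavin3 were last, at 0.290 ± 0.318 and 0.220 ± 0.193 TPM.

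Cav2 exceeded Cav1 in ERI-R alone among the groups. The ratio of Cav1 to Cav2 in TPM was 3.68, 2.49 and 1.96 in Control, 2.46, 2.04 and 5.62 in PAC-R, with 2.22, 1.92 and 4.28 for VIN-R. In ERI-R it was 0.318, 0.241 and 0.1003, so that Cav2 exceeded Cav1 in all 3 libraries and in no other. Cavin2 made up 87.4%, 88.6% and 93.2% of the summed cavin TPM in Control and 96.1%, 97.7% and 100% in ERI-R. Cavin1 made up 7.99%, 7.57% and 9.80% in PAC-R, against 0% to 2.65% in the other 9 libraries. Even there Cavin1 stood at 0.0282, 0.0263 and 0.0509 of the TPM of Cav1. These ratios rest on the same counts as the levels.

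**Figure D3:**
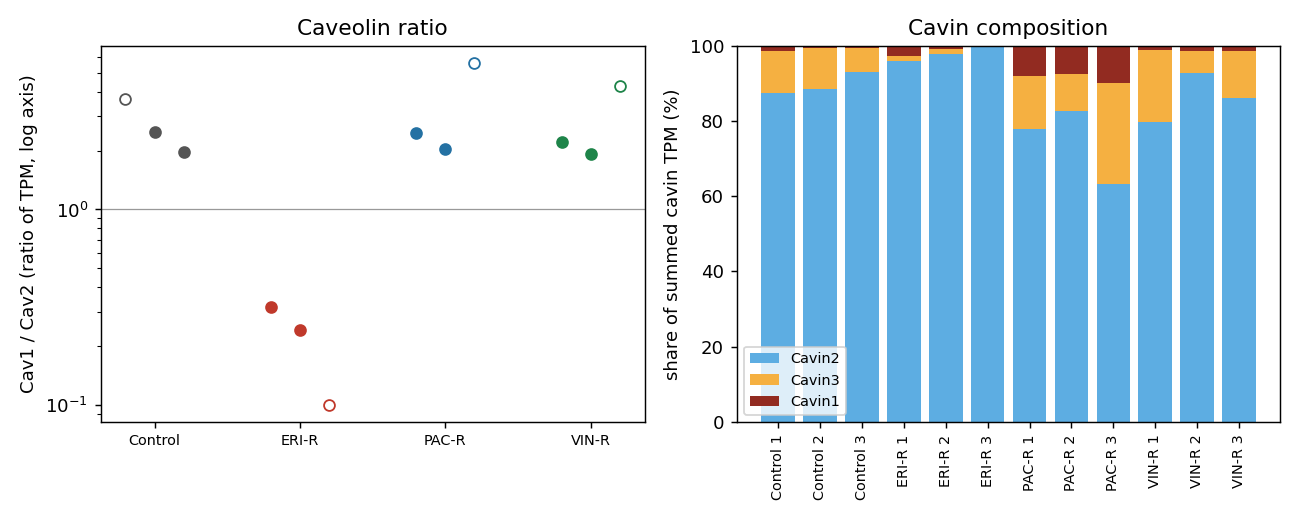
Left, ratio of Cav1 to Cav2 in TPM (log axis) in each library, with filled points for libraries with leukocyte transcripts and a line at equal levels; right, share of the summed cavin TPM taken by Cavin1, Cavin2 and Cavin3 in each library. The ERI-R libraries lie at 0.1003 to 0.318, all others at 1.92 or above, and Cavin1 takes 7.57% to 9.80% in PAC-R.

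Within groups, the members followed the leukocyte transcripts about as often as all genes did. In all 4 groups the library without them had the lowest Cav2 and the lowest Cav1 of the group, a pattern found in 24.3% of the 13284 genes averaging 1 CPM or more. Cav2 lay at 10.9 to 113 CPM in the 4 libraries without and at 154 to 264 CPM in the 8 with leukocyte transcripts. Pacsin3 was highest in the library without them in all 4 groups (18.4% of genes), at 21.8 to 38.4 CPM against 10.4 to 20.02 CPM. Ehd2 was highest there in 3 of 4 groups, all but ERI-R, and so was Pacsin2. These patterns are those of CPM. In TPM, Cav1 was highest in Control 1 (303 against 293 and 243 TPM). Pacsin3 had 21.7 TPM in ERI-R 3 against 23.2 TPM in ERI-R 1, and Pacsin2 75.4 TPM in PAC-R 3 against 83.8 TPM in PAC-R 2. Highest in at least 3 groups were thus 3 of 8 members, against 36.0% of genes, and lowest in all 4 were 2 of 8, so these counts are no trait of the members. The part of leukocyte RNA in these differences was not tested. In bulk RNA, fewer cells expressing a gene and less RNA per cell cannot be told apart.

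Transcript composition, which played no part in choosing the genes, was not separated between groups by the test where one could be run. The length that RSEM reports for a gene is the mean of its transcripts' lengths weighted by their abundance, so it moves when the mixture of transcripts moves. It varied among libraries for Cav2 (2345 to 2733 bases), Pacsin2 (2830 to 3054 bases) and Pacsin3 (1550 to 1842 bases), each with at least 121 expected counts in every library. An exact permutation test over the 4 groups, over all 369600 assignments of the libraries, gave p = 0.83, 0.94 and 0.89 (adjusted p = 0.94 for each over these 3 genes). Cav1, with 10 transcripts in the files, ranged from 1866 to 2522 bases and was not tested because ERI-R 3 held 11 counts. Cavin2, Cavin3 and Ehd2 had a constant length, and Cavin1 had one wherever it was counted.

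Of 7 relatives, 4 were tested, of which in ERI-R against Control 1 was called higher and 0 lower, with a median log2 fold change of 0.19 (all genes -0.00). The called gene was Cavin4, the muscle cavin, at 1.34, 2.00 and 1.44 CPM in ERI-R and 0.223, 0.411 and 0.356 CPM in Control, a log2 fold change of 2.19 (SE 0.64). Cavin4 did not exceed 0.411 CPM outside ERI-R and passed the filter on low counts only through the group where it was high, so its call and the median of the list support nothing. Cav3, the muscle caveolin, was at 0 in all libraries, while Ehd3 and Pacsin1 did not exceed 0.348 and 0.784 CPM. Ehd1, an ATPase of recycling endosomes related to Ehd2, had 190 CPM in Control and 118 CPM in ERI-R (log2 fold change -0.70, SE 0.32, edgeR adjusted p = 0.17). Against PAC-R, with 248.8 CPM, Ehd1 was called lower in ERI-R (-1.16, SE 0.33, edgeR adjusted p = 0.030), and against VIN-R it was not (-1.01, SE 0.33, edgeR adjusted p = 0.054). Ehd4 had -0.28 (SE 0.41), and Ror1, a receptor reported to hold caveolin and cavin together, 0.66 (SE 0.51).

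Genes that act on caveolae or beside them were described by lists drawn up with earlier results known. Adjusted p-values given for their genes are therefore descriptive. The counts of these lists stand against 9.51% of all genes called higher and 9.69% called lower in ERI-R against Control. Of 10 caveolin kinases and actin links, 4 were lower and 0 higher in ERI-R against Control (median log2 fold change -1.06). Src, a kinase that phosphorylates Cav1, lay at 180.2, 125 and 127 CPM in Control and 52.0, 44.7 and 51.5 CPM in ERI-R (-1.57, SE 0.34, edgeR adjusted p = 0.0082). Among the others, Flna, an actin crosslinker that binds Cav1, had -1.52 (SE 0.37) and Abl2, a kinase of stress fibre control, -1.06 (SE 0.33). Of 12 tested receptors and transporters reported in caveolae, 3 were lower and 0 higher (median -0.77): Pdgfrb, a growth factor receptor, with -4.63 (SE 0.66), Cd44, a hyaluronan receptor, with -2.36 (SE 0.49), and Igf1r with -2.13 (SE 0.26). Pdgfrb, at most at 1.43 CPM in ERI-R, passed the filter on low counts only through the other groups, so its call supports nothing. The fatty acid carrier Cd36 had no count in the 4 libraries without leukocyte transcripts and 111 to 883 CPM in the other 8. Nos3, the endothelial nitric oxide synthase held in caveolae, did not exceed 0.359 CPM.

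Of 19 genes of other endocytic coats, 1 was higher and 3 lower in ERI-R (median -0.11), where 9.51% of all genes were higher and 9.69% lower. The single higher coat gene and the single lower gene of lipid supply below lie near or under these shares. Epn3, an epithelial epsin of clathrin pits, lay at 27.6, 20.04 and 73.8 CPM in ERI-R and at 0.372, 0.164 and 0 CPM in Control (7.78, SE 1.40). It did not exceed 0.586 CPM outside ERI-R and passed the filter only through the group where it was high, so its call supports nothing. Snx9, a sorting nexin that binds dynamin, had -2.35 (SE 0.30), Epn2, another epsin, -1.68 (SE 0.25), and Dnm1, a dynamin, -1.51 (SE 0.31). Of 16 tested genes of membrane cholesterol and phospholipid supply, 0 were higher and 1 lower (median -0.49), the phosphoinositide kinase Pip5k1c with -1.71 (SE 0.31). Of 15 transcription regulators linked to caveolae genes, 1 was higher and 4 lower (median -0.54). Gata6 lay at 32.5, 34.7 and 38.2 CPM in Control and 1.97, 0.784 and 0.269 CPM in ERI-R (-5.25, SE 0.54, edgeR adjusted p = 0.00035). Gata6 too passed the filter only through the other groups, so its call supports nothing. Klf4 had -2.22 (SE 0.46), Tead4, a partner of YAP, -1.41 (SE 0.31), and Mrtfa, a coactivator of serum response factor, -1.03 (SE 0.28), while the forkhead factor Foxo1 was higher (1.96, SE 0.37). In the main edgeR fit none of the genes in these lists was called in PAC-R or VIN-R against Control, nor was any other gene. DESeq2 called 24 and 36 genes in these comparisons. Whether genes of these lists were among them was not worked out.

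Cav2 and Cav1 are neighbours on the plus strand of chromosome 6 (GRCm38), Cav2 at 17281185 to 17289115 and Cav1 at 17306335 to 17341452, with 17219 bases between them. Of 6 tested neighbours, 1 was lower and 0 higher in ERI-R against Control (median log2 fold change -0.93), against the same 9.69% and 9.51% of all genes. Tes, a focal adhesion protein and the next gene before Cav2, lay at 322, 316 and 328 CPM in Control and at 86.7, 96.5 and 49.9 CPM in ERI-R (-2.14, SE 0.27, edgeR adjusted p = 0.00070). Cav2 thus lies between a pair of lower genes without having been called itself. Met, the receptor of hepatocyte growth factor and the next gene after Cav1, had -1.01 (SE 0.52, adjusted p = 0.22). Its groups did not overlap, at 159.5, 146 and 152 CPM against 89.3, 139.8 and 23.0 CPM. Capza2, an actin capping protein, had -0.65 (SE 0.64), Mdfic -1.20 (SE 1.12), Tfec -0.85 (SE 2.07) and St7 -0.05 (SE 0.22). In CPM, Mdfic, Tfec and Capza2 were each lowest in the library without leukocyte transcripts in all 4 groups, as Cav1 and Cav2 were. That pattern was found in 24.3% of the 13284 genes averaging 1 CPM or more, and Tes, Met and St7 did not show it. Wnt2 was at 0 in all libraries.

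**Figure D4:**
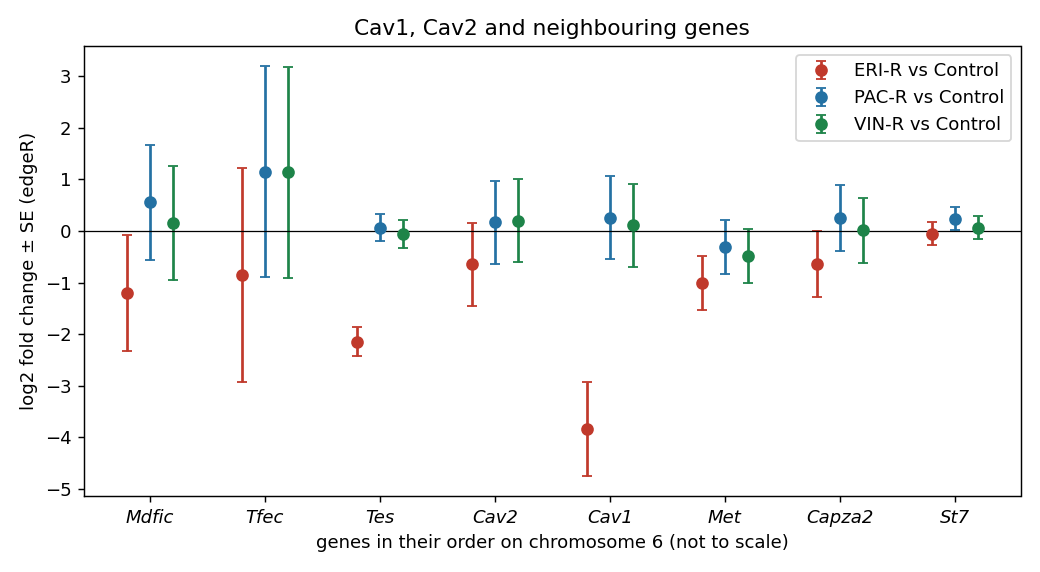
Log2 fold change with its SE (edgeR) of Cav1, Cav2 and 6 neighbouring genes in each resistant line against Control, in their order on chromosome 6 and not to scale. In ERI-R, Tes (-2.14) and Cav1 (-3.84) lie lowest on either side of Cav2 (-0.65), and PAC-R and VIN-R points lie between -0.49 and 1.14.

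The genes whose log2 CPM followed Cav1 most closely over the 12 libraries, among 9258 protein-coding genes averaging 10 CPM or more and the log taken after adding 1, were Tgif1, Spp1, Ugdh, Hmga2, Cpq and Vim, with Pearson correlations of 0.987 to 0.989. Without ERI-R 3 the correlations were 0.953 to 0.982. These points share group, depth and leukocyte content, so the values only describe likeness. Vim, the mesenchymal filament vimentin, lay at a mean of 2986 CPM in Control and 182 CPM in ERI-R, and Hmga2, a chromatin protein, at 1256 and 32.5 CPM. Among the members, Pacsin2 (0.935) and Cavin2 (0.926) came closest to Cav1 and Cav2 (0.760) less so. Without ERI-R 3 the correlations with Cav1 were 0.942 for Cavin2, 0.813 for Pacsin2 and 0.0897 for Cav2, so Cav2 still came after them. The order rests on ERI-R as a group. Over the 9 libraries outside ERI-R the correlation with Cav1 was 0.765 for Cav2, against 0.141 for Cavin2 and -0.641 for Pacsin2.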

How the data were processed

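Polyadenylated RNA of 12 libraries in 4 groups of 3 was sequenced as paired ends of 76 bases from 200 ng of RNA, per the labels' protocols. The submitters' processing notes name GRCm38 and the tools RSEM 1.3.2, STAR 2.7.2b, cutadapt 2.4 and bcl2fastq 2.20.0.422, with no roles; the sources used here do not give the annotation or the strand setting. The authors deposited gene tables of RSEM, per the file headers, with expected counts (estimated read pairs per gene, not normalized), TPM (scaled to transcript length) and a length per gene. Without a stated strand setting, reads of overlapping genes on opposite strands cannot be told apart.

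CPM were expected counts divided by the library total. For testing, expected counts were rounded (15.3% of values above 0 changed), filtered with filterByExpr (14226 genes kept) and scaled by TMM, with factors of 0.855 to 1.18. One edgeR 4.0.16 quasi-likelihood fit (R 4.3.3) held all 12 libraries, with 8 residual degrees of freedom. The common biological coefficient of variation was 0.591. A gene was called at an adjusted p under 0.05 (Benjamini-Hochberg over all genes tested). The SE is the log2 fold change divided by the root of its F statistic. The fit and the permutation test were also run on simulated data. For the fit, those data had a smaller spread than the libraries and no split in leukocyte transcripts. They therefore do not show how well the fit performs here. Symbols matched 55394 of 55573 genes, and positions are GENCODE M21. Promoters are RefSeq windows.

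The members and lists were chosen with earlier results of these data known. Adjusted p-values given for genes of a list, relatives and neighbours included, are therefore descriptive. The genes named were all members, all tested relatives and neighbours, up to 2 called genes in each direction and list averaging 1 CPM or more, the 6 genes most like Cav1, and 2 genes per marker list. Abl2, Flna, Igf1r, Dnm1, Tead4, Mrtfa, Cd36, Nos3, Fabp4, Krt7, Krt8, Krt18, Krt19, Cldn4 and Cldn7 were added after their values were seen. A gene that this rule names is not reported here. Alternatives were DESeq2 1.42.0, other scalings and filters, a replicate block, fits of the groups compared only, and leaving out each library; 8 libraries with leukocyte transcripts (Ptprc at 1 CPM or more) and a leukocyte score were chosen after seeing the data. Separate cultures are not stated for the replicates. The p-values thus measure the spread between these samples only, and it may be technical. Floors cover counting error only. FPKM were not used.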

Additional observations from a re-analysis of the deposited data

Results flagged for a closer look

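The difference between the change in ERI-R and that in another resistant line, each against the same Control libraries, passed the edgeR test for 6 members with PAC-R and 6 with VIN-R, where 18.7% and 19.3% of all genes passed. The call of Cavin1 with VIN-R was lost in 11 alternatives and kept in 10. It equals the comparison of the lines themselves, so it adds nothing to those values. In log2 units ERI-R minus PAC-R, it was -4.10 for Cav1, -5.36 for Cavin1, -2.23 for Cavin2, -6.63 for Cavin3, -1.84 for Ehd2 and -1.40 for Pacsin2. For ERI-R minus VIN-R it was -3.95 for Cav1, -2.59 for Cavin1, -2.42 for Cavin2, -6.25 for Cavin3, -1.74 for Ehd2 and -1.31 for Pacsin2. Cavin1 was the member whose ERI-R libraries all lay below and whose PAC-R libraries all lay above Control.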

How the results depend on the processing

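No log2 fold change of a called member changed sign under any alternative run. Members called in ERI-R against Control numbered 5, and 3 to 5 on leaving out a library, with 3 without Control 1. Counts over all genes in that comparison were 2732, 1744 when only these groups were fitted and 4527 with the leukocyte score. Against PAC-R, fitting only the groups compared gave 3 members and 1254 genes, and against VIN-R 2 members and 1493 genes; the score gave 4136 and 4303 genes, against 2667 and 2744. Fewer libraries entered those smaller fits. The cause of the other shifts was not tested. In PAC-R against Control the count of all genes was 0, and 24 with DESeq2 (1 member, Cavin1), 3 with the score and 0 to 2 on leaving out a library, with 2 without ERI-R 3. In VIN-R against Control it was 0, and 36 with DESeq2, 8 with the score and 0 to 6 on leaving out a library, with 6 without ERI-R 3. In PAC-R against VIN-R it was 0, and 5 with DESeq2 (1 member, Cavin1). In the 8 libraries with leukocyte transcripts 5 members, all lower, and 3264 genes (1541 lower) were called in ERI-R against Control.

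With a replicate block, 5 members and 2666 genes were called in ERI-R against Control, and no count of members changed. Same-numbered libraries of different groups had deviations with correlations from -0.86 to 0.92, a median of 0.45, and over 0.1 in 11 of 18 pairs. For differently numbered libraries they ran from -0.91 to 0.92, with a median of 0.0046, and over 0.1 in 18 of 36 pairs. The median was thus higher for equal numbers, but both kinds ran from strongly negative to strongly positive, and the numbers were not taken as pairs. Exact p-values for transcript length lay between 0.21 and 0.99 on leaving out a library. Depth limits Cavin1 and Cavin3 in ERI-R, with 20 and 7 counts over the group, and Cav1 in ERI-R 3, with 11.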

Other observations

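The RSEM length of Cav1 in Control 1, which lacked leukocyte transcripts, was 1866 bases against 2280.1 and 2309.8 bases in Control 2 and 3. In VIN-R 3, also without them, it was 1918 bases against 2419 and 2014 bases, and in PAC-R 3 2201 bases against 2329 and 2223 bases. In these 3 groups the library without leukocyte transcripts thus had the shortest mean Cav1 transcript, by little in PAC-R. The share of all genes with this pattern was not worked out, and the pattern was not tested. In ERI-R 3 the value was 2522 bases, from 11 counts.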
